A study of Mus musculus with 8 samples.

Results

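Neurod1, Neurog3, Insm1, Rfx6, Rfx3, Myt1, Tox3, St18 and Pax4 encode transcription factors or chromatin proteins of the pancreatic endocrine lineage. These 9 genes, chosen by name, are described here out of 21887 protein-coding genes, through the peaks of 6 ChIP-seq targets that lay at them. A peak was counted for a gene when its centre fell inside the gene's mm10 span or within 50 kb of either end, a stretch called the window below.

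The cells were Beta-TC6, a mouse insulinoma line that derives from a transgenic mouse expressing the SV40 large T antigen under an insulin promoter. It is 1 established, dividing line and serves as a model of the insulin-secreting beta cell. All libraries came from untreated cultures that had grown to confluence, as far as the labels say. The targets were the circadian clock partners BMAL1 and CLOCK, the homeodomain factor PDX1, the histone variant H2A.Z and the marks H3K4me2 and H3K27ac. Only 1 library was made per target, with 2 inputs shared among them, so no difference below has a replicate check or a test. Depth ranged from 12892080 tags for BMAL1 to 26678241 for H3K4me2, and the lists held from 1378 peaks (CLOCK) to 41140 intervals (H3K4me2). Peak height is given as the normalized tag count, the authors' tags per peak scaled to 10000000 tags per library. For the marks it adds up over an interval and so grows with interval width. H3K27ac lay within 1 kb of all 7 beta-cell marker genes examined (summed normalized tag counts of 393.9 to 5857). It lay at 2 of 2 alpha-cell markers at lower levels (64.7 and 138.5), and at 0 of 2 delta-cell, 0 of 1 PP-cell, 0 of 4 acinar and 0 of 3 duct markers.

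In the embryonic pancreas the basic helix-loop-helix factor NEUROG3 starts the endocrine programme in progenitor cells and is then largely lost. Factors that follow it, among them NEUROD1, INSM1, RFX6, PAX4 and the MYT1 family, carry the cells towards hormone-producing fates, and several stay in use in the mature beta cell. PDX1 binds regulatory DNA of many beta-cell genes, H3K27ac marks active promoters and enhancers, and H3K4me2 marks both active and poised ones.

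The windows of the 9 genes together held 56 PDX1 peaks, 83 H3K4me2 intervals, 66 H3K27ac intervals, 28 H2A.Z intervals, 6 BMAL1 peaks and 2 CLOCK peaks. PDX1 had a peak at 7 of the 9 genes, all but Neurog3 and Insm1, while 58.1% of all protein-coding genes had at least 1 in the window. H3K27ac was found at 8 genes (all but Neurog3), against 73% of all genes, and H3K4me2 at all 9, against 81.2%. H2A.Z was found at 8 genes (all but Insm1), against 72.7%. BMAL1 was found at 4 genes (Rfx6, Rfx3, Tox3 and St18), against 21.3% of all genes, and CLOCK at 2 (Rfx3 and Myt1), against 13.1%. With 9 genes, each of these counts lay within 3 genes of what the background share gives.

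Window length ran from 101.674 kb at Neurog3 to 473.71 kb at St18, so counts were also set per 100 kb of window. The median density of PDX1 peaks over the 9 genes was 2.97 per 100 kb, while the median of all genes was 0.764. For H3K27ac the medians were 5.82 and 1.60, and for H3K4me2 6.55 and 2.55. For H2A.Z the medians were 1.13 and 0.993, with single genes from 0 at Insm1 to 2.97 at Tox3, 3.28 at Rfx6 and 3.65 at Myt1. These densities count every interval once, whatever its height. The H3K27ac intervals in the 9 windows had a median normalized tag count of 27.6, below the 49.1 of the whole list. For H3K4me2 the median was 22.1 in the windows and 28.9 in the whole list. The 7 genes with PDX1 peaks all exceeded the median PDX1 density of all genes. They ranged from Pax4, above 82.6% of genes, to Rfx6, above 99.7%. In a short window 1 peak is enough to pass the median: at Ptf1a, 1 peak in 101.839 kb gave 0.982 per 100 kb. All BMAL1 and CLOCK peaks lay in the 5 longer windows, from 152.67 kb at Rfx6 to 473.71 kb at St18. The 4 shorter windows held none. BMAL1 densities were 0.655 at Rfx6, 0.283 at Rfx3, 1.49 at Tox3 and 0.211 at St18, with a 90th percentile of all genes of 0.864. CLOCK densities were 0.283 at Rfx3 and 0.608 at Myt1, with a 90th percentile of 0.681.

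**Figure D1:**
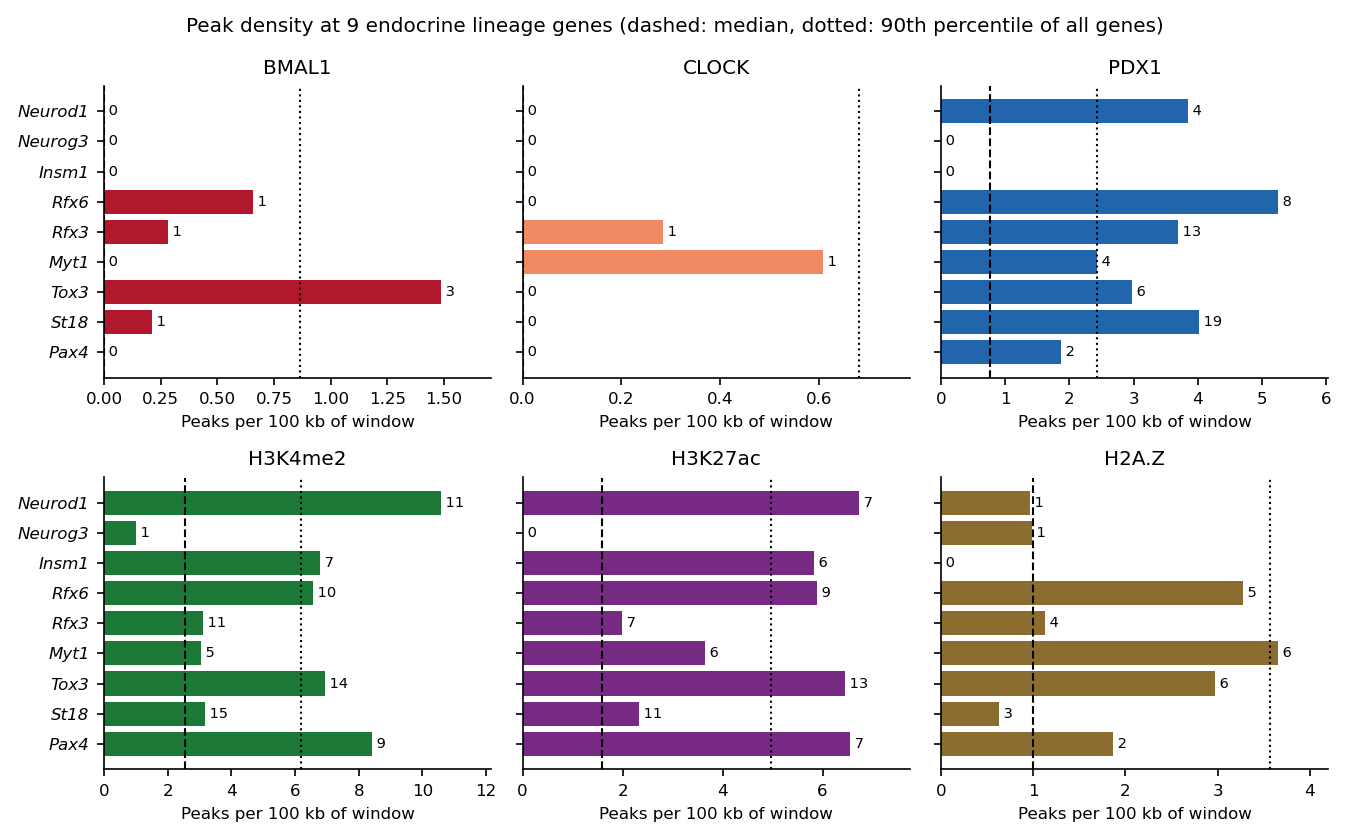
Peaks per 100 kb of window at each of the 9 genes, in 1 panel per target, with the number of peaks printed at each bar. Dashed and dotted lines give the median and the 90th percentile of all protein-coding genes; the PDX1 bars of 7 genes pass the median, and Neurog3 and Insm1 have no PDX1 bar.

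Neurog3, the gene that starts the endocrine programme, was the emptiest of the 9. It spans 1674 bp on chromosome 10, 62133090 to 62134763. No BMAL1, CLOCK, PDX1 or H3K27ac peak was detectable in its window at these depths. One H3K4me2 interval (62110258 to 62111214, normalized tag count 48.0) and one H2A.Z interval (62110394 to 62111041, 14.6) overlapped each other there. Both had their centres inside a neighbouring gene, Fam241b, more than 20 kb from Neurog3. The nearest PDX1 peak beyond the window was centred 73.897 kb from Neurog3, with a normalized tag count of 21.0.

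Neurod1, which encodes a bHLH activator of insulin transcription, showed the opposite picture. The gene lies on chromosome 2, 79452637 to 79456636, and is wholly covered by an H3K27ac interval from 79446978 to 79461348. This interval is 14.37 kb wide, had a normalized tag count of 2513 and ranked 27 among 29735 H3K27ac intervals. It held 81.1% of the H3K27ac signal in the window, and 4 H3K4me2 intervals overlapped it. Here and below, signal of a window means the summed normalized tag count of its H3K27ac intervals. The summed H3K27ac of the Neurod1 window, 3097, exceeded that of 99.3% of all genes, whose median was 179.4.

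The PDX1 peaks in the Neurod1 window were modest in height. The 4 of them had normalized tag counts of 18.4, 9.71, 14.3 and 7.15 in order along the chromosome, while the median of the PDX1 list was 9.20. All 4 overlapped H3K27ac and 3 also overlapped H3K4me2. The one closest to the gene, at 79448262 to 79448496, was centred 4258 bp outside the gene and inside the 14.37 kb interval. The first and second of the 4 lay inside the neighbouring gene Cerkl, whose end was also the nearest gene end to them. BMAL1 and CLOCK had no peak in the Neurod1 window.

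Insm1 encodes a zinc finger factor needed for endocrine differentiation, and it combined strong H3K27ac with no PDX1 peak in its window. Its span (chromosome 2, 146221997 to 146225020) lay inside an H3K27ac interval from 146221129 to 146226269 with a normalized tag count of 585.3 (rank 992). A somewhat larger interval, 146253055 to 146261448 (625.5, rank 887), lay inside the neighbouring gene Ralgapa2. The summed H3K27ac of the Insm1 window was 1395, above 93.9% of genes. H3K4me2 had 7 intervals there, the strongest (146223406 to 146226267) with a normalized tag count of 97.1, and BMAL1, CLOCK and H2A.Z had none. The nearest PDX1 peak beyond the window was centred 53.785 kb from the gene, with a normalized tag count of 11.2.

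Pax4 encodes a paired homeodomain factor that favours the beta over the alpha cell fate. Its gene lies on chromosome 6, 28442334 to 28449340. The strongest H3K27ac interval of the window, 28447620 to 28452953 (normalized tag count 804.9, rank 526), reached across one end of the gene and held 70.5% of the H3K27ac signal there. Inside that interval lay a PDX1 peak at 28451050 to 28451284, with a normalized tag count of 22.5 (rank 2967 of 34883), on H3K4me2 as well and 1827 bp outside the gene. The other PDX1 peak (28491205, 9.71) lay in Snd1 and touched neither active mark. The strongest H3K4me2 interval in the window, at 28480669 (158.2), was also at Snd1.

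**Figure D2:**
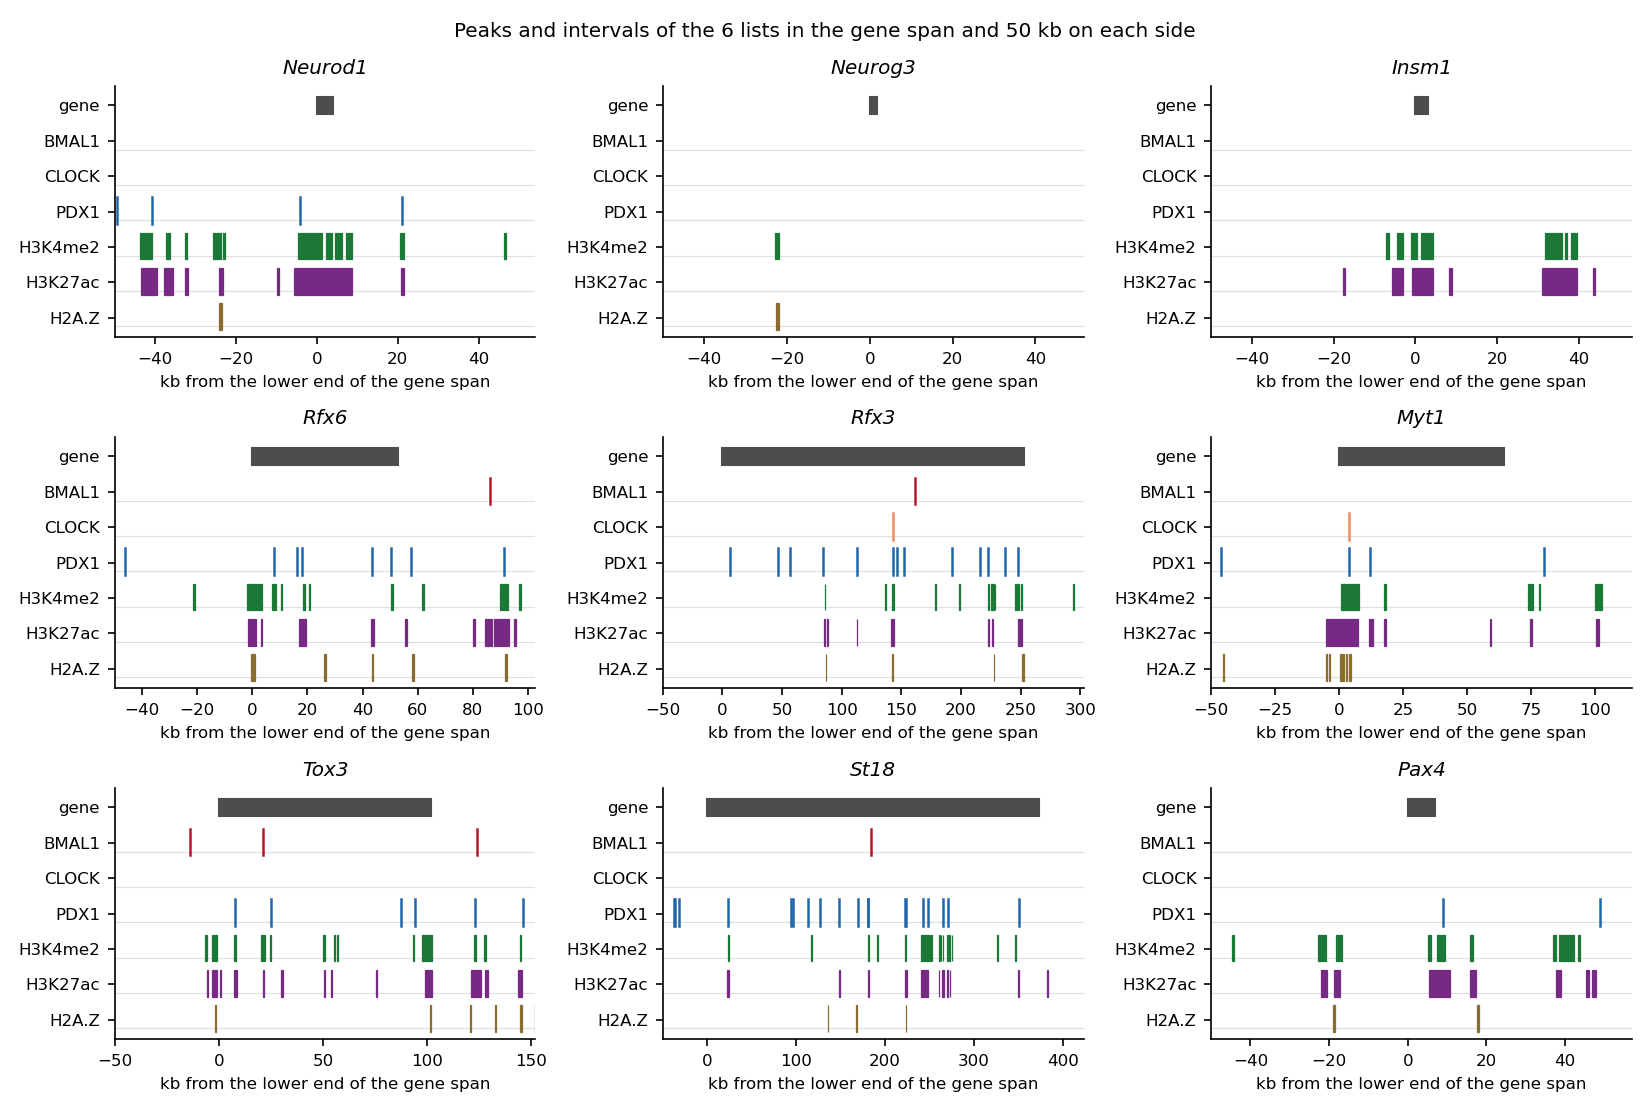
Positions of the peaks and intervals of the 6 targets in the window of each gene, in kb from the lower end of the gene span; grey bars are the gene spans and the horizontal scale differs between panels. Neurod1 and Myt1 each have 1 H3K27ac interval over 12 kb wide, over the whole gene at Neurod1 and across 1 gene end at Myt1. PDX1 ticks spread along the long genes Rfx3 and St18, and the Neurog3 panel holds 1 H3K4me2 and 1 H2A.Z interval.

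Rfx6, a winged-helix factor required for islet formation, had the densest PDX1 peaks of the 9 genes, 8 in a window of 152.67 kb. Its span runs from 51677760 to 51730429 on chromosome 10. In order of position their normalized tag counts were 7.15, 29.6, 21.5, 39.3, 9.20, 22.0, 10.7 and 18.4. Of these 8 peaks 4 were in the highest 10% of the PDX1 list, and their median of 19.95 was the highest among the 7 genes with PDX1 peaks.

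The tallest, at 51695823 to 51696057 (39.3, rank 690), overlapped H3K27ac and not H3K4me2. The peak of 29.6 (51685413 to 51685647, rank 1513) overlapped H3K4me2 and not H3K27ac, and its centre was 12 bp from the Rfx6 start listed in the RefSeq promoter table. That start lies inside the gene span, not at its end. A PDX1 peak overlapped 265 of 32619 listed promoters (0.812%), each counted over its 300 bases. The promoter is shown because the PDX1 peak covers 155 of its 300 bases. It was taken from RefSeq (GRCm38.p6, the coordinates of mm10) at chr10:51685268-51685567 on the plus strand, 250 bases before to 50 after the start, with TAATTA in capitals:

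Rfx6: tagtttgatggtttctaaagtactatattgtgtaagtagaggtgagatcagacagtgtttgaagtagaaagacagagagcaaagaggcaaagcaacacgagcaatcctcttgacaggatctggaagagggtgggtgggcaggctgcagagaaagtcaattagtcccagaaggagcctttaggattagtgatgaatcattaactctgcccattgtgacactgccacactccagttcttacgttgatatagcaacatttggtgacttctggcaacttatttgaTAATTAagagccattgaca

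TAATTA is a core recognised by homeodomain proteins such as PDX1. It was searched on both strands, and since it equals its own reverse complement each match counts once. The match begins 31 bases after the listed start, and 5.29% of 32851 promoters of this length hold one. The other strings searched were the E-box CACGTG of CLOCK and BMAL1 (in 7.15% of promoters) and the E-box CAGATG bound by NEUROD1-type factors (17.2%). Neither was in this promoter sequence.

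The strongest Rfx6 marks lay elsewhere. The lower end of the span had an H3K4me2 interval of 245.1 (51675802 to 51681234, rank 490), H3K27ac of 218.2 (51675998 to 51678941) and the strongest H2A.Z interval of all 9 windows, 29.7 (51677207 to 51678619, rank 1081). The strongest H3K27ac interval, 504.1 at 51765373 to 51770731 (rank 1345), was more than 30 kb beyond the other end and held a PDX1 peak of 18.4. The neighbouring H3K27ac interval of 258.4 held a BMAL1 peak (51763738 to 51764068, 11.6), centred 5271 bp from that PDX1 peak.

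Rfx3, a relative of Rfx6 with roles in cilia and in endocrine cells, had 13 PDX1 peaks, all inside its span (chromosome 19, 27761721 to 28014669). A pair of them stood far above the rest. The peak at 27874352 to 27874586 had a normalized tag count of 68.0 (rank 120), and the peak at 27904724 to 27904958 had 48.5 (rank 374). The other 11 ranged from 8.69 to 21.0. The taller of the pair overlapped a weak H3K27ac interval (8.94) and no H3K4me2. The peak of 48.5 overlapped H3K4me2, H3K27ac (253.2), H2A.Z (9.72) and a CLOCK peak (27904794 to 27904998, 8.38), whose centre was 55 bp away. It was the 1 PDX1 peak of the 56 that overlapped H2A.Z. Among the 13 peaks, 9 touched neither H3K4me2 nor H3K27ac.

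The listed Rfx3 start lay in the strongest H3K27ac interval of the window (28009875 to 28012724, 779.6, rank 565). A PDX1 peak of 21.0 (28009121) was centred 1928 bp from that start, on H3K4me2 and 520 bp short of the H3K27ac interval. A BMAL1 peak inside the gene (27922744 to 27923074, 14.0) overlapped none of the 3 chromatin lists and was 18013 bp from the CLOCK peak.

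Myt1 and St18 encode related zinc finger proteins of the MYT family. Myt1 (chromosome 2, 181763332 to 181827775) carried an H3K27ac interval of 12.66 kb across its first listed start (181758121 to 181770784). That interval had a normalized tag count of 1602, ranked 94 of 29735 and held 89.9% of the H3K27ac signal of the window. The H3K4me2 interval over it, 181764104 to 181770920, had 376.0 and ranked 79 of 41140. The H3K27ac interval also overlapped 5 H2A.Z intervals, the strongest with a normalized tag count of 24.3. Of the 4 PDX1 peaks of the window (9.71, 27.6, 6.13 and 10.2 in order), the second fell in this interval and the third in a weaker one of 57.3.

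That second PDX1 peak, 181766998 to 181767232 (27.6, rank 1796), was centred 86 bp from the second of 3 listed Myt1 starts. A CLOCK peak (181767031 to 181767235, 14.5, rank 159 of 1378) was centred 18 bp from it and 104 bp from the start. Of the 265 promoters whose 300 bases overlap a PDX1 peak, as those of this start do, 8 also overlap a CLOCK peak, this one among them. The sequence below is the RefSeq promoter of this second start, chr2:181766779-181767078 on the plus strand, and is shown because both factor peaks overlap it. The PDX1 peak covers 81 of its 300 bases. The homeodomain core and both E-boxes searched above had 0 matches in it on either strand. This says only that these letters are not in these 300 bases:

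Myt1: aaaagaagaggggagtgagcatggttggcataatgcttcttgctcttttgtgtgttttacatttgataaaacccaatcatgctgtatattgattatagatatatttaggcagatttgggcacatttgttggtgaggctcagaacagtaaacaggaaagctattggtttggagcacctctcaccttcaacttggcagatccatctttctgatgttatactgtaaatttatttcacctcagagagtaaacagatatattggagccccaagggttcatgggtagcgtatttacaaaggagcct

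St18, expressed in beta cells and known also as Myt3, is the longest of the genes (chromosome 1, 6487231 to 6860940) and had 19 PDX1 peaks, 16 of them inside its span. The peaks were low, from 5.62 to 19.4 with a median of 9.71, and none was in the highest 10% of the list. From 6668598 to 6757971, a stretch of 89.4 kb inside the gene, 7 PDX1 peaks in a row overlapped both H3K27ac and H3K4me2. Their normalized tag counts were 7.15, 14.3, 16.9, 13.3, 17.4, 17.4 and 19.4. The first lay on a weak H3K27ac interval of 9.68. The second, by 85 bp, and the third lay on an H3K27ac interval of 27.6. Both intervals were below the H3K27ac list median of 49.1. Outside this stretch 1 of the other 12 peaks overlapped both marks (6510922, 15.8), and 1 overlapped H3K27ac alone (6837648, 6.64).

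An H3K27ac interval from 6727880 to 6736196 (normalized tag count 1130, rank 247) lay in the middle of the St18 stretch, held 2 of the 7 PDX1 peaks and held 73.3% of the H3K27ac signal of the window. The H3K4me2 interval over it (6728063 to 6737449, 577.6) ranked 12 of 41140, the highest rank of any H3K4me2 interval at the 9 genes. Both St18 and Myt1 thus had a single interval with over 70% of the H3K27ac signal of the window. This was not particular to them, since Neurod1 (81.1%), Rfx3 (71.6%) and Pax4 (70.5%) had one too. At St18 the interval was centred deep inside the span, and at Myt1 it lay across one end. A BMAL1 peak (6671247 to 6671577, 10.1) lay 2697 bp from a PDX1 peak of the stretch and overlapped no chromatin interval.

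Tox3, an HMG-box gene expressed in islet cells, held the tallest PDX1 peak of all 9 windows. This peak, inside the gene (chromosome 8, 90247110 to 90349029) at 90272080 to 90272314, had a normalized tag count of 100.2 and ranked 33 of 34883. It shared 80 bp with an H3K4me2 interval, and the nearest H3K27ac interval was 3147 bp away. The other 5 PDX1 peaks of the window were at 9.20, 9.71, 10.7, 14.8 and 15.8. The peak of 15.8 (90370024) lay in the strongest Tox3 H3K27ac interval, 90368230 to 90372915 (635.9, rank 860), about 20 kb outside the gene.

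Tox3 also had 3 of the 6 BMAL1 peaks, a density of 1.49 per 100 kb that exceeded the 90th percentile of all genes (0.864). One of them, 90370827 to 90371157 (14.0), lay in that same H3K27ac interval, 851 bp from the PDX1 peak of 15.8. The second (90268327, 11.6) overlapped H3K4me2 and a weak H3K27ac interval of 7.45, 3705 bp from the tallest PDX1 peak. The third (90233087, 11.6) overlapped no chromatin interval. In this order the 3 BMAL1 peaks were 4.09, 6.82 and 5.12 times the input, where 4 times was required. None of them reached the 8 times used as a stricter filter below, so the Tox3 density rests on peaks near the calling limit. The listed Tox3 start was covered by H3K4me2 (248.1, rank 467) and H3K27ac (357.4), and an H2A.Z interval (9.18) was centred 384 bp from it.

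Across the 8 clock-factor peaks at these genes, BMAL1 and CLOCK did not overlap each other, and 0 of the 6 BMAL1 peaks overlapped PDX1. Both CLOCK peaks overlapped PDX1, where 19.4% of the whole CLOCK list did so, and for BMAL1 the whole-list share was 5.14%. H3K27ac held both CLOCK peaks (62.8% of the whole CLOCK list) and 3 of the 6 BMAL1 peaks (18.3% of the BMAL1 list). The heights of the BMAL1 peaks, 10.1 to 14.0, were at or above the median of their list, 10.1. Those of CLOCK, 8.38 and 14.5, lay above the CLOCK median of 7.82. The tag threshold for calling was 13 in both lists, and each tag adds 0.776 to a BMAL1 height and 0.559 to a CLOCK height. The BMAL1 heights and the CLOCK height of 8.38 were therefore at that threshold or only a few tags above it. Lying at or above the median thus does not mark these peaks as strong. With 8 peaks the overlap shares above are descriptions.

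**Figure D3:**
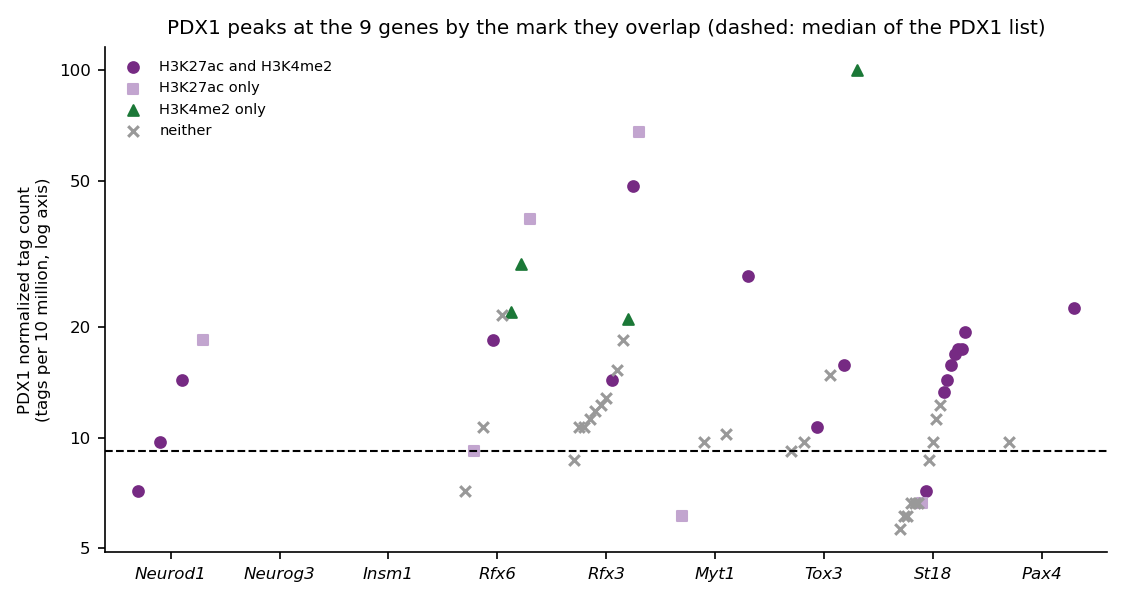
Normalized tag count (log axis) of each of the 56 PDX1 peaks, grouped by gene and ordered by height within a gene, with the symbol giving the active mark it overlaps and the dashed line giving the PDX1 list median of 9.20. Tox3 (100.2) and Rfx3 (68.0) hold the 2 tallest peaks, neither on both marks, and the St18 peaks stay at or below 19.4.

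The shares of PDX1 peaks on the active marks were higher at the 9 genes than over the whole PDX1 list. H3K27ac overlapped 24 of the 56 (42.9%, Wilson 95% interval 30.8 to 55.9), against 21.1% of the whole list. H3K4me2 overlapped 22 (39.3%, 27.6 to 52.4), against 23.6%, and H2A.Z overlapped 1 (1.79%, 0.316 to 9.45), against 3.12%. Both active marks were present at 18 peaks (32.1%, against 14.8% of the list), and 28 peaks (50.0%, against 70.0%) had neither. These intervals cover counting error only, and peaks in 1 window share a locus. St18 and Rfx3 together gave 32 of the 56 peaks, and without St18 the H3K27ac share was 40.5% and the H3K4me2 share 37.8%. With every list, marks included, limited to peaks of at least 8 times the input, the H3K4me2 share was 2.13% and the H3K27ac share 29.8%; the whole PDX1 list was not recounted in that way.

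Genes differed in how their PDX1 peaks sat on the marks. At Neurod1 all 4 peaks were on H3K27ac, at Rfx3 3 of 13, at Rfx6 3 of 8, at Myt1 2 of 4, at Tox3 2 of 6, at St18 9 of 19 and at Pax4 1 of 2. Peaks on H3K27ac had a higher median height than those off it, with overlapping ranges. The 24 peaks on H3K27ac had normalized tag counts of 6.13 to 68.0 (median 15.8), and the 32 others 5.62 to 100.2 (median 10.7), so the groups overlapped over most of their range. The peaks off H3K27ac lay 52 to 78840 bp from the nearest H3K27ac interval, with a median of 8739 bp.

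In height the 56 peaks had a median of 12.05 against 9.20 for the list, and 10 of them (17.9%) were in its highest 10%, a class that holds 10.6% of the list because of ties. PDX1 peaks lay more densely inside the gene spans than in the flanks, at 4.64 and 1.78 per 100 kb, and 71.4% were inside spans that make up 48.9% of the windows. This pooled value rests on the long genes: Rfx3 (13) and St18 (16) gave most of the 40 inside peaks, while Neurod1 and Pax4 had 0 inside and 4 and 2 outside. For H3K27ac the corresponding densities were 3.95 and 3.56. Of the 56 PDX1 peaks 50 had an end of the same gene as their nearest protein-coding gene end, as did 51 of the 66 H3K27ac intervals. The others lay nearer to neighbours such as Cerkl, Ralgapa2 and Snd1. The PDX1 peaks closest to the limit of the windows were one at Neurod1, 49.452 kb outside the gene (18.4), and the next one there, 53.177 kb outside and not counted (13.8).

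**Figure D4:**
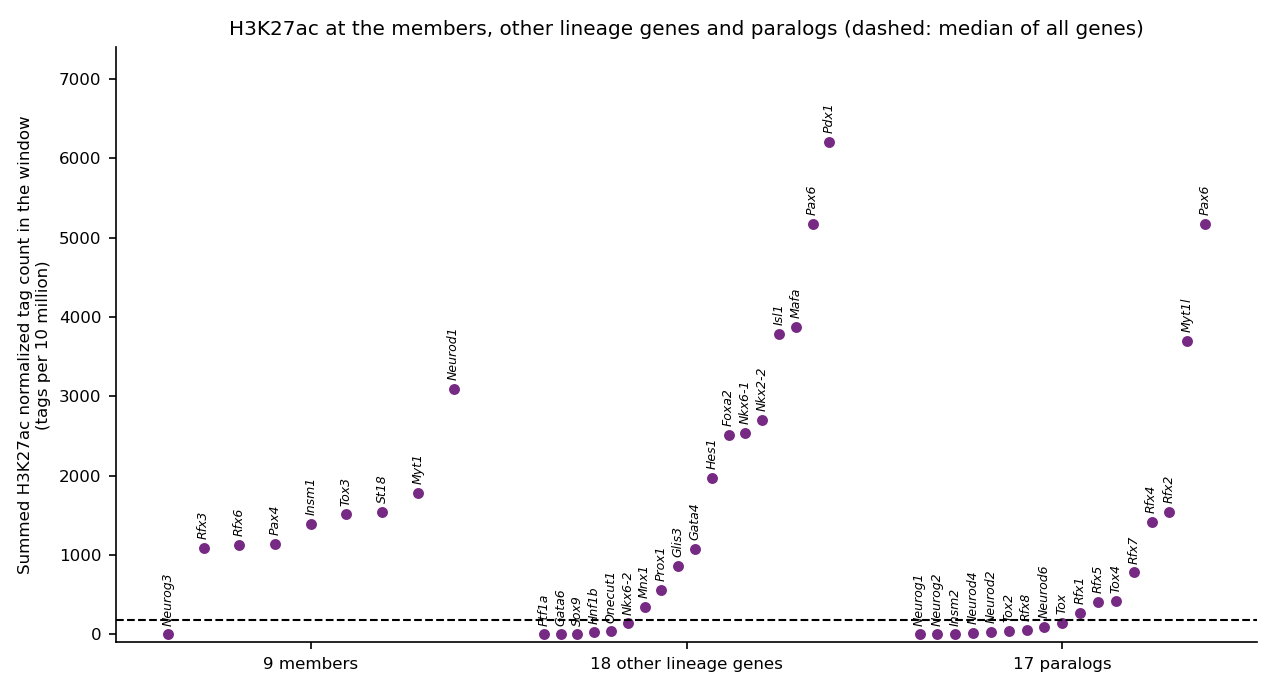
Summed H3K27ac normalized tag count in the window of each of the 9 genes, 18 other endocrine lineage genes and 17 paralogs (Pax6 is on both lists), 1 point per gene, with the median of all genes, 179.4, dashed. Neurog3 is at 0 and the other 8 genes lie from 1089 (Rfx3) to 3097 (Neurod1), below Pdx1 (6206) and Pax6 (5175). The sums are not scaled to window length.

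Other genes of the endocrine lineage gave a reference. Of 18 such genes 16 had a PDX1 peak in the window, 15 had H3K27ac, 17 H3K4me2, 11 H2A.Z, 3 BMAL1 and 2 CLOCK. Their median PDX1 density was 1.94 per 100 kb, between the 2.97 of the 9 genes and the 0.764 of all genes. Summed H3K27ac was higher than at Neurod1 for Pdx1 itself (6206), for Pax6 (5175), for the insulin gene activator Mafa (3874) and for Isl1 (3782). It was 0 for Sox9, Ptf1a and Gata6. The order among the 9 genes was Neurod1 (3097), Myt1 (1781), St18 (1541), Tox3 (1512), Insm1 (1395), Pax4 (1142), Rfx6 (1132), Rfx3 (1089) and Neurog3 (0). Without replicates, neighbours in this order cannot be told apart. The sums were not scaled to window length, which was 103.024 kb at Insm1 and 473.71 kb at St18. The order is therefore not one of H3K27ac per 100 kb.

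Paralogs were on either side of their relatives among the 9 genes. The bHLH paralogs Neurog1 and Neurog2 had a summed H3K27ac of 0, as Neurog3 did, and the Insm1 paralog Insm2 was also at 0. The paralogs Rfx2 (1547) and Rfx4 (1417) were above Rfx6 and Rfx3, while the other RFX genes on the list reached at most 781.9 (Rfx7). Tox had a summed H3K27ac of 145.1 and Tox3 1512, with PDX1 densities of 3.46 and 2.97 per 100 kb. The Myt1 relative Myt1l reached 3698, above Myt1 and St18. Its window of 495.627 kb is longer than that of Myt1 (164.444 kb). Likewise the Rfx4 window (250.503 kb) is longer than that of Rfx6 (152.67 kb). These sums were not scaled to window length, so their order is not one of H3K27ac per 100 kb. Over the 17 paralogs the median densities were 1.81 PDX1 peaks and 1.48 H3K27ac intervals per 100 kb. Of these paralogs 13 had a PDX1 peak in the window, 14 had H3K27ac, 17 H3K4me2, 16 H2A.Z, 7 BMAL1 and 4 CLOCK. The shares with BMAL1 (41.2%) and CLOCK (23.5%) were close to those of the 9 genes (44.4% and 22.2%).

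The protein-coding gene on another chromosome with the most similar profile was found from the summed normalized tag counts of the 6 lists, as the smallest Euclidean distance on the log2(1 + value) scale. For Neurod1 it was Abhd2 (distance 0.322), whose window summed to 3441 for H3K27ac and 56.2 for PDX1, next to 3097 and 49.6 at Neurod1. It was Cfap97d1 for Insm1 (0.264), Fam104a for Pax4 (0.226), Fkbp9 for Rfx6 (0.388) and Etv1 for St18 (0.623). Myt1 (Rbfox3, 0.709), Tox3 (Mtss1, 0.857) and Rfx3 (1700001J03Rik, 0.900) had the most distant neighbours. Neurog3 was nearest to Pcdhb8 (0.128), another gene with 0 in 4 of the 6 lists.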

How the data were processed

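ChIP-seq peak lists of 6 targets in Beta-TC6 cells were used, with 1 library for each target. The submitters' processing notes name Bowtie 1.1.1, HOMER (no version) and mm10. HOMER findPeaks called peaks on each library alone against 1 of 2 inputs, per the file headers. BMAL1, CLOCK and PDX1 were called with fixed widths and needed 4 times the input and 4 times the surrounding 10 kb, per the file headers; the marks and H2A.Z were called with variable widths. The H2A.Z label names the other input than its list's header, and the header was followed. The normalized tag count is a deposited signal scaled to 10000000 tags per library. The deposited score was read and not used for ranks, and the deposited fold over input (a ratio) served one filter.

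Gene spans came from RefSeq (GRCm38.p6, the coordinates of mm10) and hold no exons, so exons, introns and UTRs were not determined. Promoters came from the RefSeq promoter table, which lists 6 of the 9 genes. Peaks overlapped when they shared 1 bp, and ranks follow the normalized tag count, with ties given the best rank. Every one of the 9 genes was named, with the top peak of each list, all BMAL1 and CLOCK peaks, the 10 highest PDX1 peaks and 1 most similar gene each; further peaks were named after their values were seen. The genes and lists were chosen with earlier results of these data known. In the comparison lists, 2 genes are not reported here and entered no count of those lists. Overlap and window counts were tested on simulated data, where 0 of 400 overlaps and 0 of 200 windows differed from a direct search. A missing peak means that none was detectable at a library's depth. Counting used pandas 2.3.3 and NumPy 2.4.6 under Python 3.11.15, intervals SciPy 1.17.1 and plots matplotlib 3.10.9.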

Additional observations from a re-analysis of the deposited data

How the results depend on the processing

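Of 117 values recomputed under 8 alternatives, 84 stayed within their counting interval or within 1.5 times the reported count and 33 moved. Keeping peaks at 8 or more times the input, in every list, moved most. It left 1 BMAL1 peak, 1 CLOCK peak, 5 H2A.Z, 25 H3K27ac and 21 H3K4me2 intervals. BMAL1 was left at 1 gene (Rfx6, with no peak left at Tox3), CLOCK at 1 (Rfx3) and H2A.Z at 4. PDX1 peaks were then on H3K27ac in 29.8%, on H3K4me2 in 2.13% and on H2A.Z in 0% of cases, and of the clock-factor peaks 1 was on H3K27ac, 0 on H3K4me2 and 1 on PDX1. Assigning each peak to its nearest gene end alone, no farther than 50 kb, removed peaks nearer to another gene and peaks deep inside long genes. It left 29 PDX1 peaks, 38 H3K27ac and 45 H3K4me2 intervals and 1 CLOCK peak, with BMAL1 at 2 genes, CLOCK at 1 and H2A.Z at 5, 0% of PDX1 peaks on H2A.Z and 1 clock-factor peak on PDX1. Within 10 kb there were 3 BMAL1 peaks, 18 H2A.Z intervals at 5 genes and 3 clock-factor peaks on H3K27ac. Within 100 kb there were 4 CLOCK peaks at 4 genes, and 4 clock-factor peaks lay on PDX1. PDX1 and H3K27ac were then each found at all 9 genes, Neurog3 and Insm1 included. The upper 50% of each list left 29 H3K27ac and 37 H3K4me2 intervals. An overlap of 50% of the PDX1 peak left 0% on H2A.Z. Counting any base in the window, or leaving out St18 (added after seeing the data), moved 0 values. No paired analysis was possible because each target had 1 library.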

Other observations

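At some listed starts of the 9 genes the promoter overlapped an H3K27ac interval but fell beside, not on, the H3K4me2 intervals. Of the 5 listed promoters (300 bases) that overlapped H3K27ac, 3 overlapped no H3K4me2 interval: those of Neurod1 and Rfx3 and the first start of Myt1. Of all 9298 listed promoters that overlapped H3K27ac, 28.3% overlapped no H3K4me2 interval. With 5 promoters the share at the 9 genes is a description. At Neurod1 and Myt1 the H3K27ac intervals were those of 2513 and 1602, and at Rfx3 that of 779.6. The Neurod1 promoter (79456587 to 79456886) lay between H3K4me2 intervals ending at 79456493 and starting at 79457133. That of Rfx3 (28011117 to 28011416) lay between H3K4me2 intervals ending at 28010807 and starting at 28011953. The first Myt1 promoter ended at 181763381, and the H3K4me2 interval of 376.0 began at 181764104.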
